A study of Bos taurus with 12 samples.

Results

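The genes described here are 32 members of the pathway that makes cholesterol and of the system that senses and moves it in cells: 17 enzymes of synthesis, 5 genes of SREBP control, 6 genes of sterol uptake and handling and 4 genes of efflux and the LXR receptors. Each was read on the probeset whose single gene symbol in the platform's annotation was that member, which gave 1 probeset for each of the 32 among 18010 genes with a single symbol. Members were not chosen by a threshold on their signal, but they were chosen with earlier results of these data known. Counts of members are therefore set beside those of all probesets as a description and not as a test. Epithelial cells were squeezed from the isthmus and the ampulla of oviducts of normally cycling Angus heifers, from the side of the preovulatory follicle or the corpus luteum, and the RNA of each was hybridized to 1 Bovine Gene 1.0 ST array. The groups were FP isthmus, LP isthmus, FP ampulla and LP ampulla, with 3 arrays each from 6 heifers. The 3 follicular phase (FP) heifers, labelled as high in estradiol, were given 25 mg of prostaglandin F2α on cycle day 6, with slaughter 36 h after it. The 3 luteal phase (LP) heifers, labelled as high in progesterone, were given none and were slaughtered on day 11 or 12. The FP was thus reached by a drug that ends the corpus luteum, and the day of the cycle differs between the phases as well as the steroid.

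Cells make cholesterol from acetate by way of mevalonate, which is turned into isoprenoid units, then into squalene, and after ring closure through a series of sterols into cholesterol. When sterol in the endoplasmic reticulum is low, the escort protein SCAP carries the SREBP transcription factors to the Golgi, where they are cut and released to raise transcription of the enzymes, whereas INSIG proteins hold SCAP back when sterol is plentiful. Excess sterol, as oxysterol, instead activates LXR receptors, which raise the transporters that hand cholesterol to lipoproteins outside the cell. In the oviduct cholesterol is of interest because its loss from the sperm membrane is part of capacitation.

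Values are RMA log2 signals, on which 1 unit is a doubling, and the lower quartile of an array lay between 5.68 and 5.82. No member had a group mean at or under that level. Differences are FP minus LP within a tissue, or isthmus minus ampulla within a phase, from a limma fit over the 12 arrays, with the standard error (SE) and a p-value adjusted over all 26773 probesets. A member was called higher or lower at an adjusted p under 0.05 with at least a 1.5-fold difference. The SD among the 3 heifers of a group had a median over members of 0.11 for the FP isthmus, 0.17 for the LP isthmus, 0.15 for the FP ampulla and 0.19 for the LP ampulla, and was highest for LPL in the LP isthmus (0.99). The 6 epithelial markers lay above the lower quartile in every group, with a mean signal between 10.28 and 10.74 on every array, but their differences between the phases had opposite signs. In each tissue all 6 had an unadjusted p under 0.05 between the phases, 3 with a positive and 3 with a negative difference. The keratin KRT8 was called higher in the FP in the isthmus (0.72) and the ampulla (0.79), and the tight junction gene CLDN4 was called lower in the isthmus (-1.43). By the labels the isthmus and ampulla of a heifer are paired. In the LP each isthmus array deviated from its group mean most like the ampulla array of the same heifer (correlation over probesets of 0.26, 0.22 and 0.37), but in the FP each deviated most like the ampulla array of another heifer number (0.24, 0.24 and 0.16, against -0.05, -0.17 and -0.10 for the same number). Differences within FP heifers below, and fits with heifer as a block, therefore rest on labels that the arrays did not bear out in the FP. These correlations were small and were not tested, so they cannot tell whether the FP labels are right. With heifer as a random block, the correlation between the arrays of a heifer was 0.088. Comparisons of group means in the main fit do not use this pairing.

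Within epithelial cells of the ampulla, 14 of the 17 enzymes of synthesis rose in the FP versus the LP groups and none fell. The FP and LP arrays of these 14 did not overlap, with FP the higher, as for 16.6% of all probesets. Over all 32 members, 19 were higher and 1 was lower, where 4.44% of all probesets were higher, 3.38% were lower and 7.82% were called in either direction. The median difference was 1.2 for the enzymes and 0.71 for the 32 members, against -0.03 for all probesets.

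**Figure D1:**
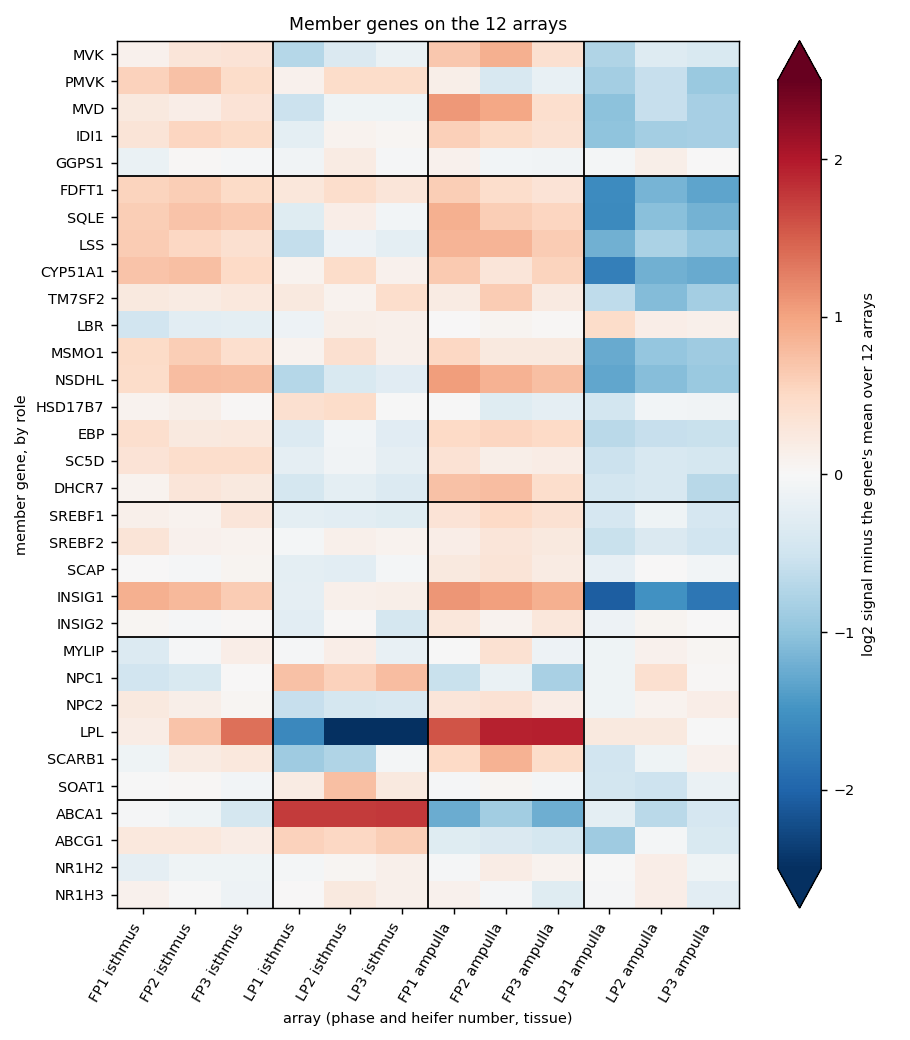
Log2 signal of the 32 members minus each gene's mean over the 12 arrays, with members in rows by role and arrays in columns by group (red higher, blue lower, LPL in LP heifers 2 and 3 of the isthmus beyond the end of the scale). Most enzymes of synthesis are blue in the 3 LP ampulla arrays, while ABCA1 is red in the 3 LP isthmus arrays.

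The first enzymes act on mevalonate. Mevalonate kinase (MVK) had a log2 signal of 8.86, 9.08 and 8.58 in the FP ampulla, against 7.44, 7.86 and 7.80 in the LP ampulla, and rose by 1.14 (SE 0.17, adjusted p = 0.0019). Phosphomevalonate kinase (PMVK), which adds the next phosphate, had 8.42, 7.87 and 8.10 in the FP ampulla, against 7.42, 7.70 and 7.36 in the LP ampulla. Its FP values varied more among heifers, and its increase of 0.64 (SE 0.16, adjusted p = 0.0192) was lost on dropping FP heifer 1 or 3 or LP heifer 1 or 3, with a highest adjusted p of 0.0919, and in a fit on the ampulla arrays alone (adjusted p = 0.055). Mevalonate diphosphate decarboxylase (MVD), which makes the isoprenoid unit, had 8.99, 8.86 and 8.31 in the FP ampulla, against 6.88, 7.32 and 7.06 in the LP ampulla, with an increase of 1.63 (SE 0.19, adjusted p = 0.000398). Every FP heifer lay about 1 unit or more above every LP heifer for MVD.

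Isopentenyl diphosphate isomerase (IDI1) readies that unit for chain building, and its signal was 12.18, 12.06 and 11.97 in the FP ampulla, against 10.57, 10.74 and 10.75 in the LP ampulla. The groups were far apart for their spread, and IDI1 rose by 1.38 (SE 0.11, adjusted p = 4.88e-05). Geranylgeranyl diphosphate synthase (GGPS1), which leads away from sterols to the lipid anchors of proteins, averaged 11.11 ± 0.11 (SD, n = 3) in the FP ampulla, against 11.17 ± 0.10 in the LP ampulla. Its difference of -0.06 did not pass (adjusted p = 0.763), with a 95% interval of -0.29 to 0.17.

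Squalene synthase (FDFT1), the first enzyme committed to sterols, had 12.10, 11.91 and 11.82 in the FP ampulla, against 9.91, 10.32 and 10.15 in the LP ampulla. The increase was 1.82 (SE 0.11, adjusted p = 1.47e-05), or 3.52-fold. Squalene epoxidase (SQLE), a rate-controlling step, had 11.88, 11.62 and 11.54 in the FP ampulla, against 9.39, 9.95 and 9.82 in the LP ampulla. Each FP value of SQLE exceeded each LP value by more than 1.5 units, and the increase was 1.96 (SE 0.16, adjusted p = 6.08e-05). Lanosterol synthase (LSS), which closes the rings, had 9.81, 9.83 and 9.61 in the FP ampulla, against 7.77, 8.19 and 8.01 in the LP ampulla, an increase of 1.76 (SE 0.14, adjusted p = 5.99e-05). Lanosterol demethylase (CYP51A1) had 11.66, 11.32 and 11.56 in the FP ampulla, against 9.30, 9.81 and 9.76 in the LP ampulla. Its increase was 1.89 (SE 0.16, adjusted p = 6.75e-05), and again no heifers overlapped.

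The sterol reductase TM7SF2 and the lamin B receptor LBR, whose proteins can carry out the same reduction, had different values. TM7SF2 had 8.94, 9.37 and 8.95 in the FP ampulla, against 8.11, 7.66 and 7.90 in the LP ampulla, and rose by 1.2 (SE 0.15, adjusted p = 0.000597). LBR, which also anchors chromatin to the nuclear envelope, averaged 9.11 ± 0.02 in the FP ampulla, against 9.33 ± 0.18 in the LP ampulla, a difference of -0.22 that did not pass (adjusted p = 0.237). The difference between these genes was not tested.

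The methyl groups of the sterol are then removed. Methylsterol monooxygenase (MSMO1) had 12.47, 12.19 and 12.18 in the FP ampulla, against 10.68, 10.98 and 11.06 in the LP ampulla, an increase of 1.38 (SE 0.13, adjusted p = 0.000137). The dehydrogenase NSDHL had 11.63, 11.45 and 11.33 in the FP ampulla, against 9.28, 9.52 and 9.65 in the LP ampulla. Its increase of 1.98 (SE 0.15, adjusted p = 3.25e-05) was the largest of the 17 enzymes in this tissue. HSD17B7, which completes that removal and also acts on estrone, had a difference of 0.03 (adjusted p = 0.932), with overlapping groups.

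The last steps shift and reduce the double bonds. The isomerase EBP had 11.04, 11.08 and 11.04 in the FP ampulla, against 9.87, 9.97 and 9.97 in the LP ampulla, and rose by 1.12 (SE 0.09, adjusted p = 5.02e-05). Sterol C5-desaturase (SC5D) had 12.39, 12.16 and 12.21 in the FP ampulla, against 11.47, 11.61 and 11.58 in the LP ampulla, with a smaller increase of 0.70 (SE 0.09, adjusted p = 0.000582). DHCR7, the reductase that yields cholesterol itself, had 11.87, 11.91 and 11.57 in the FP ampulla, against 10.68, 10.75 and 10.45 in the LP ampulla, an increase of 1.16 (SE 0.12, adjusted p = 0.000177). Whichever of the 6 heifers was dropped, 13 of these 14 calls stood, PMVK being the exception.

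Within epithelial cells of the isthmus, 4 of the 17 enzymes rose in the FP versus the LP groups and none fell. These were MVK, SQLE, LSS and NSDHL, each of them also called in the ampulla, although both tissues came from the same heifers. Over the 32 members, 7 were higher and 2 were lower, where 4.4% of all probesets were higher, 4.04% were lower and 8.44% were called in either direction. The median difference was 0.475 for the enzymes and 0.27 for the members, against -0.015 for all probesets. For 13 of the 17 enzymes the FP arrays lay above all LP arrays, as for 16.5% of all probesets. With no minimum fold, 15 members passed, 12 higher and 3 lower, where 8.73% of all probesets passed as higher and 8.36% as lower.

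NSDHL had 11.03, 11.35 and 11.32 in the FP isthmus, against 9.86, 10.20 and 10.30 in the LP isthmus, and rose by 1.11 (SE 0.15, adjusted p = 0.000888). LSS had 9.61, 9.49 and 9.38 in the FP isthmus and 8.37, 8.85 and 8.73 in the LP isthmus, an increase of 0.84 (SE 0.14, adjusted p = 0.00311). Both calls stood whichever heifer was dropped. SQLE had 11.61, 11.70 and 11.65 in the FP isthmus and 10.69, 11.16 and 10.94 in the LP isthmus, and its increase of 0.73 (SE 0.16, adjusted p = 0.0113) was lost on dropping FP heifer 2, at an adjusted p of 0.0596. MVK had 8.29, 8.49 and 8.54 in the FP isthmus and 7.47, 7.83 and 8.02 in the LP isthmus, an increase of 0.67 (SE 0.17, adjusted p = 0.0241) that was lost on dropping FP heifer 1, 2 or 3 or LP heifer 1 or 2, with a highest adjusted p of 0.0757. The arrays of FP and LP did not overlap for any of these 4 enzymes.

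Another 4 enzymes had an adjusted p under 0.05 in the isthmus and missed the minimum fold on the higher side. Their differences were 0.58 for SC5D (adjusted p = 0.00148), 0.55 for DHCR7 (adjusted p = 0.00915), 0.54 for EBP (adjusted p = 0.00249) and 0.47 for IDI1 (adjusted p = 0.0136). LBR missed it on the lower side at -0.38 (adjusted p = 0.0445), with all 3 FP arrays under all 3 LP arrays, as for 17.7% of all probesets. FDFT1, among the largest increases of the ampulla, had 12.03, 12.09 and 11.96 in the FP isthmus and 11.75, 11.92 and 11.78 in the LP isthmus. Its difference of 0.21 did not pass (adjusted p = 0.265), with a 95% interval of -0.05 to 0.46. CYP51A1 (0.44, adjusted p = 0.0824), MVD (0.50, adjusted p = 0.0994), MSMO1 (0.30, adjusted p = 0.151), PMVK (0.25, adjusted p = 0.331), TM7SF2 (-0.02, adjusted p = 0.963), GGPS1 (-0.09, adjusted p = 0.65) and HSD17B7 (-0.20, adjusted p = 0.419) did not pass either. The plot of FP minus LP differences sets both tissues beside each other.

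**Figure D2:**
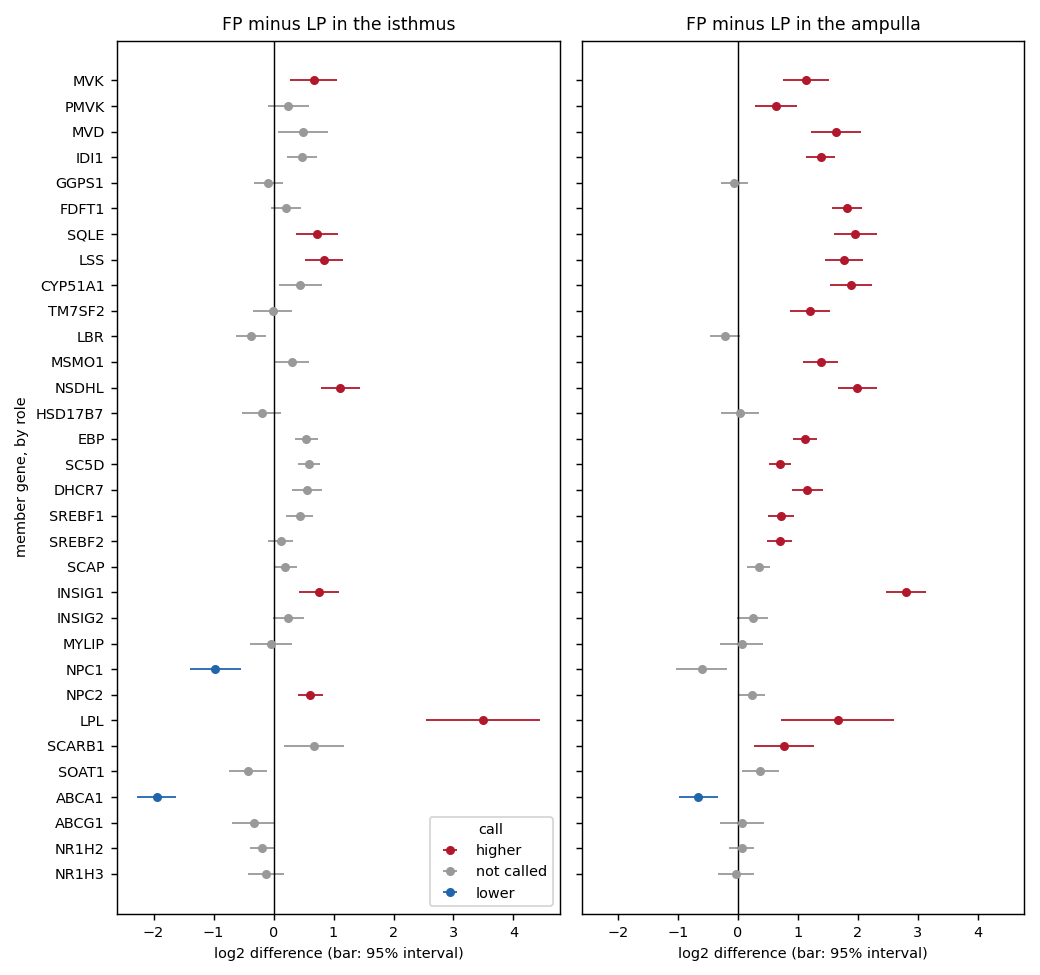
FP minus LP log2 difference of the 32 members in the isthmus (left) and the ampulla (right), with 95% intervals from limma (red called higher, blue called lower, grey not called). Of the 17 enzymes, 4 are red in the isthmus and 14 in the ampulla, and ABCA1 is blue in both.

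Among the genes that control the SREBP proteins, INSIG1 changed most. INSIG1, which holds SCAP in the endoplasmic reticulum and is itself an SREBP target, had 11.24, 11.15 and 11.02 in the FP ampulla, against 8.08, 8.62 and 8.33 in the LP ampulla. The difference between phases was many times the spread among heifers, at 2.80 (SE 0.15, adjusted p = 5.62e-06), a 6.95-fold increase that was the largest of the 32 members in this tissue. In the isthmus INSIG1 had 11.02, 10.94 and 10.77 in the FP and 9.90, 10.26 and 10.29 in the LP, and rose by 0.76 (SE 0.15, adjusted p = 0.00653). Both calls stood whichever heifer was dropped. Its paralog INSIG2, which does the same work but is not known as a strong SREBP target, averaged 9.85 ± 0.11 in the FP ampulla, against 9.61 ± 0.10 in the LP ampulla. The differences of INSIG2 were 0.24 in each tissue and did not pass (adjusted p = 0.189 in the isthmus and 0.19 in the ampulla).

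The transcription factor genes moved less. SREBF2, which encodes the SREBP most tied to cholesterol, had 9.68, 9.83 and 9.76 in the FP ampulla, against 8.97, 9.16 and 9.05 in the LP ampulla, and rose by 0.70 (SE 0.09, adjusted p = 0.00101). SREBF1, which encodes the forms most tied to fatty acids, had 9.04, 9.19 and 9.07 in the FP ampulla, against 8.28, 8.58 and 8.28 in the LP ampulla, an increase of 0.72 (SE 0.10, adjusted p = 0.00123). The phases did not overlap for either gene, and both calls stood whichever heifer was dropped. In the isthmus SREBF1 had a difference of 0.44 (adjusted p = 0.0146), under the minimum fold, and SREBF2 one of 0.12 (adjusted p = 0.435). SCAP had 0.20 in the isthmus (adjusted p = 0.167) and 0.34 in the ampulla (adjusted p = 0.0248), under the minimum fold. Arrays give the level of these mRNAs and not the cleavage of the SREBP proteins.

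Of the 6 genes of uptake and handling, 2 rose and 1 fell in the isthmus, and 2 rose in the ampulla. Lipoprotein lipase (LPL), which frees fatty acids from circulating lipoproteins, had 9.43, 9.96 and 10.63 in the FP isthmus, against 7.64, 5.78 and 6.11 in the LP isthmus. LP heifer 2 was at the lower quartile of the arrays, so the size of its increase, 3.50 (SE 0.43, adjusted p = 0.000612), is uncertain, and it ranged from 3.13 to 4.06 when each heifer was left out. In the ampulla LPL had 10.82, 11.17 and 11.20 in the FP and 9.49, 9.49 and 9.23 in the LP. The arrays of the phases did not overlap there either, but the increase of 1.66 (SE 0.43, adjusted p = 0.0238) was lost on dropping FP heifer 2 or 3 or LP heifer 3, with a highest adjusted p of 0.104. LPL is also abundant in adipocytes, of whose 4 listed markers 3 lay at or under the lower quartile in every group. PLIN1 lay above it, with group means from 6.51 in the FP ampulla to 6.7 in the FP isthmus. None of the 4 was called between the phases in either tissue. The part of adipocytes or other cells in the LPL values was not tested.

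SCARB1, the receptor that takes cholesterol from high density lipoprotein, had 10.31, 10.69 and 10.27 in the FP ampulla, against 9.34, 9.71 and 9.93 in the LP ampulla. Its increase of 0.77 (SE 0.23, adjusted p = 0.0435) was near the threshold and passed with LP heifer 3 dropped but with no other heifer dropped, with a highest adjusted p of 0.186. In the isthmus SCARB1 had 0.68 (adjusted p = 0.0673), with overlapping groups. The paired lysosomal proteins NPC1 and NPC2, which pass cholesterol out of lysosomes, differed in sign. NPC1 had 9.90, 9.99 and 10.39 in the FP isthmus, against 11.11, 10.95 and 11.14 in the LP isthmus, and fell by 0.97 (SE 0.19, adjusted p = 0.00635). NPC2 had 11.49, 11.39 and 11.29 in the FP isthmus and 10.67, 10.81 and 10.85 in the LP isthmus, and rose by 0.62 (SE 0.10, adjusted p = 0.00235). Neither gene had overlapping phases in the isthmus, and the call of NPC2 was lost on dropping FP heifer 1 or LP heifer 1, where its difference went under the minimum fold.

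In the ampulla NPC1 had a difference of -0.61 (adjusted p = 0.0524) and NPC2 one of 0.23 (adjusted p = 0.145). Sterol O-acyltransferase (SOAT1), which stores cholesterol as esters, had -0.42 in the isthmus (adjusted p = 0.0655) and 0.37 in the ampulla (adjusted p = 0.105). The ubiquitin ligase MYLIP, an LXR target that sends lipoprotein receptors for degradation, had -0.05 in the isthmus (adjusted p = 0.885) and 0.06 in the ampulla (adjusted p = 0.865), and its FP and LP arrays overlapped in both tissues.

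ABCA1, the transporter that loads cholesterol onto lipoproteins and a known LXR target, was the only member called lower in the FP in both tissues, as were 1.46% of all probesets. NPC1, above, was near the threshold in the ampulla. Called higher in both tissues were 6 members (2.51% of all probesets). ABCA1 had 8.56, 8.49 and 8.16 in the FP isthmus, against 10.34, 10.34 and 10.37 in the LP isthmus. The 3 LP heifers were nearly alike, and ABCA1 fell by 1.95 (SE 0.14, adjusted p = 6.51e-05), a 3.85-fold decrease. In the ampulla it had 7.36, 7.73 and 7.37 in the FP and 8.35, 7.92 and 8.17 in the LP, and fell by 0.66 (SE 0.14, adjusted p = 0.0116). Dropping FP heifer 1 or LP heifer 1 took this call away, with a highest adjusted p of 0.0657. ABCG1, another efflux transporter and LXR target, had -0.33 in the isthmus (adjusted p = 0.212) and 0.07 in the ampulla (adjusted p = 0.84). The LXR genes themselves were not called. NR1H3 had -0.13 in the isthmus and -0.03 in the ampulla, and NR1H2 had -0.19 in the isthmus and 0.06 in the ampulla, with adjusted p between 0.22 and 0.927.

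Some markers of other cells also differed between the phases. The mean signal of 6 T and NK cell markers was 6.18 to 6.75 on FP isthmus arrays, against 7.15 to 8.14 on LP isthmus arrays. FP ampulla arrays had 6.07 to 6.51, against 7.12 to 8.63 on LP ampulla arrays. Of all probesets, 4.04% were called lower in the isthmus and 3.38% in the ampulla. Of the 6 markers, 0 were called lower in the isthmus and 2 in the ampulla, with 5 at an unadjusted p under 0.05 in each tissue. At or under the lower quartile lay 2 of these 6 in each FP group and 1 in each LP group. The 5 macrophage and dendritic cell markers averaged 6.58 to 6.89 on FP ampulla arrays, against 7.0 to 7.23 on LP ampulla arrays. In the isthmus the ranges overlapped, at 6.76 to 6.96 on FP arrays and 6.75 to 7.16 on LP arrays. There 3 of the 5 markers had a positive and 2 a negative difference. In each tissue 1 of 5 was called lower, as were 4.04% of all probesets in the isthmus and 3.38% in the ampulla. Of 5 markers of proliferating cells, 3 were called higher in the FP in the isthmus and 4 in the ampulla, as were 4.4% and 4.44% of all probesets. Their part in the values of the members was not tested, and in a preparation of many cells a change in the share of a cell type and a change of mRNA per cell cannot be told apart.

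Set over all 4 groups, the LP ampulla stood apart for the enzymes. Of the 17 enzymes, 15 had their lowest group mean there, and for 12 the 3 LP ampulla arrays all lay under the other 9, which held for 2.4% of all probesets. Each enzyme was also centred on its mean over the 12 arrays. The median centred signal of the 17 was 0.35, 0.44 and 0.41 on the FP isthmus arrays, -0.22, 0.09 and -0.03 on the LP isthmus arrays, 0.59, 0.47 and 0.38 on the FP ampulla arrays and -0.86, -0.58 and -0.84 on the LP ampulla arrays. Without the LP ampulla the group means of FDFT1 spanned 0.21 units and those of TM7SF2 0.11 units, against 1.90 and 1.2 with it. INSIG1, SREBF2 and SOAT1 likewise had all LP ampulla arrays under the others. LPL, NPC2, SCARB1, SCAP and INSIG2 instead had their lowest mean in the LP isthmus, and ABCA1, NPC1, SOAT1, ABCG1, HSD17B7 and NR1H3 had their highest mean there.

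**Figure D3:**
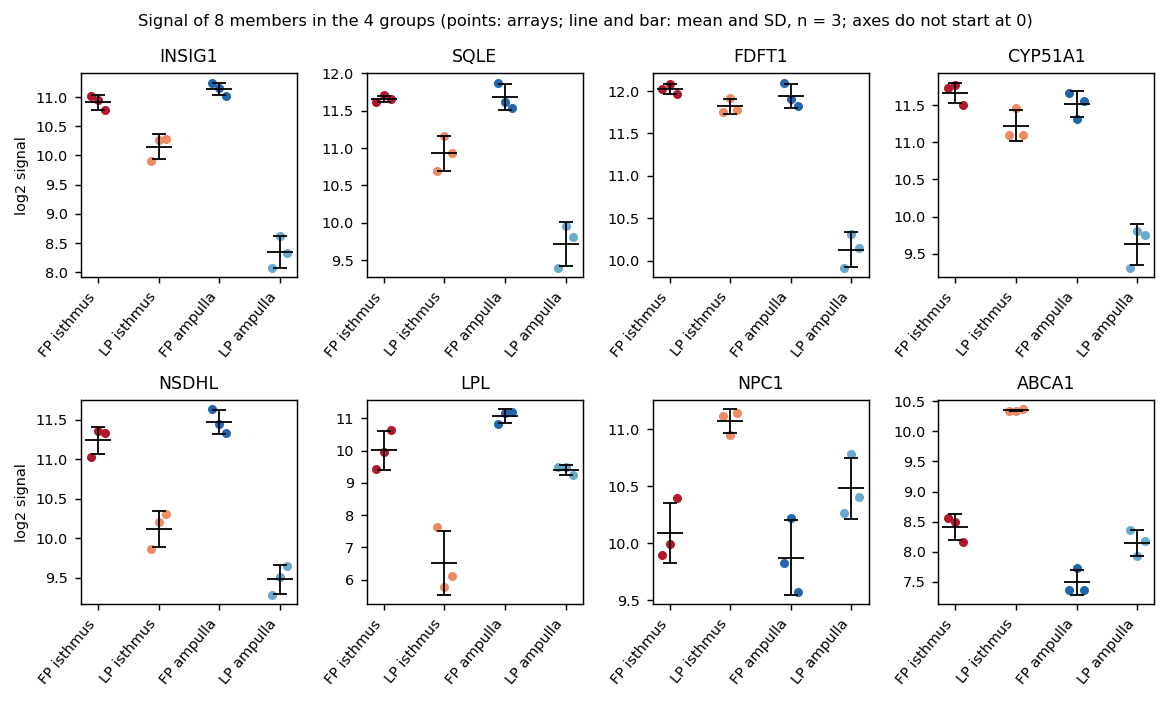
Log2 signal of 8 members in the FP isthmus, LP isthmus, FP ampulla and LP ampulla (points are arrays, with the mean and SD of 3). FDFT1, CYP51A1, INSIG1, SQLE and NSDHL are lowest in the LP ampulla, LPL is lowest in the LP isthmus, and ABCA1 and NPC1 are highest in the LP isthmus.

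Whether the phases differed by more in 1 tissue than in the other was tested as the phase by tissue interaction, the FP minus LP difference of the isthmus minus that of the ampulla. It passed for 4 of the 32 members, each negative, where 0.153% of all probesets passed in either direction, 0.138% as negative and 0.0149% as positive. For INSIG1 the FP minus LP difference was 0.76 in the isthmus and 2.80 in the ampulla, an interaction of -2.04 (SE 0.21, adjusted p = 0.0154). For FDFT1 it was 0.21 in the isthmus and 1.82 in the ampulla, an interaction of -1.61 (SE 0.16, adjusted p = 0.0154). CYP51A1 had 0.44 in the isthmus and 1.89 in the ampulla, with an interaction of -1.45 (SE 0.23, adjusted p = 0.0472). ABCA1 had -1.95 in the isthmus and -0.66 in the ampulla, with an interaction of -1.28 (SE 0.20, adjusted p = 0.0483), so that its decrease was the larger in the isthmus. Increases of the first 3 genes were the larger in the ampulla.

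These interactions did not hold under every setting. With heifer as a fixed block, INSIG1 (adjusted p = 0.0109) and FDFT1 (0.0208) passed, and CYP51A1 (0.0931) and ABCA1 (0.122) did not. That block uses the FP pairs as labelled, which the arrays did not bear out. None of the 4 passed on dropping FP heifer 1, 2 or 3, and CYP51A1 and ABCA1 also failed on dropping LP heifer 2 or 3 (highest adjusted p 0.136 for INSIG1, 0.121 for FDFT1, 0.274 for CYP51A1 and 0.228 for ABCA1). Few of all 26773 probesets passed then. With all heifers 4 were positive and 37 negative. These counts were 2 and 2 without FP heifer 1, 0 and 0 without FP heifer 2, and 1 and 1 without FP heifer 3. They were 0 and 4 without LP heifer 2, and 2 and 18 without LP heifer 3. Without LP heifer 1 they instead rose to 72 and 69. In that fit 6 members passed, each negative, with IDI1 and SQLE added. With each heifer dropped, the interactions of the 4 members kept their sign, between -2.12 and -1.96 for INSIG1 and between -1.66 and -1.53 for FDFT1. At an unadjusted p under 0.05, 17 of the 32 members had an interaction, as did 9.73% of all probesets, and all 17 enzymes had a negative value, with a median of -0.87. The next by adjusted p were IDI1 (-0.91, adjusted p = 0.0635), TM7SF2 (-1.21, adjusted p = 0.0669), MSMO1 (-1.07, adjusted p = 0.0669) and SQLE (-1.23, adjusted p = 0.0816). LPL had the highest value, 1.84, with an SE of 0.60 and an adjusted p of 0.339.

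In the LP, 13 members were higher and 1 was lower in the isthmus than in the ampulla, where 3.92% of all probesets were higher, 3.07% were lower and 6.99% were called in either direction. Of the 17 enzymes 9 were higher. The comparison uses the same LP ampulla arrays as the phase comparison of the ampulla, so they are not independent. INSIG1 had the signals given above, 10.15 ± 0.22 in the LP isthmus and 8.34 ± 0.27 in the LP ampulla (SD, n = 3), a difference of 1.81 (SE 0.15, adjusted p = 6.11e-05). For FDFT1 the difference was 1.69 (SE 0.11, adjusted p = 1.72e-05), and it was 1.84, 1.60 and 1.63 within the 3 LP heifers. CYP51A1 had 11.10, 11.46 and 11.10 in the LP isthmus, against 9.30, 9.81 and 9.76 in the LP ampulla, a difference of 1.60 (SE 0.16, adjusted p = 0.000183). The groups lay more than 1 unit apart for these 3 genes.

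MSMO1 had 12.03, 12.34 and 12.06 in the LP isthmus and 10.68, 10.98 and 11.06 in the LP ampulla, a difference of 1.24 (SE 0.13, adjusted p = 0.000261). SQLE differed by 1.21 (SE 0.16, adjusted p = 0.000973), and PMVK, with 8.39, 8.74 and 8.73 in the LP isthmus and 7.42, 7.70 and 7.36 in the LP ampulla, by 1.13 (SE 0.16, adjusted p = 0.00126). TM7SF2, with 8.98, 8.82 and 9.18 in the LP isthmus and 8.11, 7.66 and 7.90 in the LP ampulla, differed by 1.10 (SE 0.15, adjusted p = 0.00104). The differences of IDI1 (0.87, adjusted p = 0.000714), LSS (0.66, adjusted p = 0.013) and NSDHL (0.64, adjusted p = 0.0175) were smaller. Those of LSS and NSDHL were lost on dropping LP heifer 3, and that of NSDHL also on dropping LP heifer 2, with a highest adjusted p of 0.0938 for LSS and 0.121 for NSDHL. A fit on the LP arrays alone also lost both (adjusted p = 0.0688 for LSS and 0.0622 for NSDHL).

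The efflux transporters were also higher in the isthmus. ABCA1 had 10.34, 10.34 and 10.37 in the LP isthmus, against 8.35, 7.92 and 8.17 in the LP ampulla, a difference of 2.20 (SE 0.14, adjusted p = 1.43e-05), or 4.59-fold. ABCG1 had 13.08, 13.02 and 13.13 in the LP isthmus and 11.63, 12.47 and 12.13 in the LP ampulla, a difference of 1.00 (SE 0.17, adjusted p = 0.00331). LP heifer 1 was lowest for ABCG1 in the ampulla. SOAT1 had 9.61, 10.15 and 9.65 in the LP isthmus and 8.94, 8.87 and 9.23 in the LP ampulla, a difference of 0.79 (SE 0.14, adjusted p = 0.0053) that fell under the minimum fold on dropping LP heifer 2 and was lost in a fit on the LP arrays alone (adjusted p = 0.0534). LPL was the member that was lower in the isthmus, at 7.64, 5.78 and 6.11 in the LP isthmus against 9.49, 9.49 and 9.23 in the LP ampulla, with differences of -1.85, -3.71 and -3.12 within the 3 LP heifers and -2.89 (SE 0.43, adjusted p = 0.00175) between the groups. NPC2 (-0.52, adjusted p = 0.00673), EBP (0.37, adjusted p = 0.0206) and SREBF2 (0.52, adjusted p = 0.00541) had adjusted p-values under 0.05 but were under the minimum fold.

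In the FP, 2 members were higher and none was lower in the isthmus than in the ampulla, where 1.52% of all probesets were higher and 0.829% were lower. The difference was negative for 22 of the 32 members and positive for 10. For 13 members all isthmus arrays lay under all ampulla arrays, as for 13.1% of all probesets. They lay above them for 4 members, as for 11.9% of all probesets. ABCA1 had 8.56, 8.49 and 8.16 in the FP isthmus, against 7.36, 7.73 and 7.37 in the FP ampulla, a difference of 0.92 (SE 0.14, adjusted p = 0.00821) that was lost on dropping FP heifer 1 or 2, with a highest adjusted p of 0.0866. PMVK had 8.86, 9.0 and 8.74 in the FP isthmus and 8.42, 7.87 and 8.10 in the FP ampulla, a difference of 0.74 (SE 0.16, adjusted p = 0.0311). That call of PMVK was lost with heifer as a fixed block (adjusted p = 0.0655), in a fit on the FP arrays alone (adjusted p = 0.077) and on dropping FP heifer 1, 2 or 3 or LP heifer 3, with a highest adjusted p of 0.315. It stood with heifer as a random block (adjusted p = 0.0223). Both blocks use the FP pairs as labelled, which the arrays did not bear out. At an unadjusted p under 0.05, 12 of the 32 members differed, as did 18% of all probesets. For the 17 enzymes the median difference was -0.04, against 0.64 in the LP, with ranges of -0.58 to 0.74 in the FP and -0.20 to 1.69 in the LP. INSIG1 was -0.22, -0.21 and -0.25 within the 3 FP heifers and 1.83, 1.64 and 1.96 within the 3 LP heifers.

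Over both phases, 4 members were above the ampulla in the isthmus in 6 of 6 heifers (PMVK, HSD17B7, ABCA1 and ABCG1), and 5 were below it in 6 of 6 (LBR, INSIG2, NPC2, LPL and SCARB1). Of all probesets 9.07% were above and 10.8% were below in 6 of 6. The groups did not overlap in the FP for PMVK, HSD17B7, ABCA1, ABCG1, LBR, INSIG2, LPL and SCARB1, so for these the sign does not rest on the pairing of FP heifers, while for NPC2 it does. Markers of other cells also differed between the tissues. The 6 fibroblast markers had a mean signal of 8.09 to 9.14 on FP isthmus arrays, against 6.67 to 7.23 on FP ampulla arrays. For the LP the same mean was 7.05 to 8.92 on isthmus arrays, against 6.96 to 7.33 on ampulla arrays. Of these 6, 1 was called higher in the isthmus in the FP (DCN, 3.16) and 2 in the LP (LUM, 3.78, and PDGFRA, 0.65), while COL1A1 (-0.03) and COL1A2 (-0.09) were not higher in the LP. The 6 ciliated cell markers averaged 10.94 to 11.02 on FP isthmus arrays, against 11.06 to 11.19 on FP ampulla arrays, and 10.74 to 10.95 on LP isthmus arrays, against 11.26 to 11.4 on LP ampulla arrays. In the LP all 6 had a negative difference with an unadjusted p under 0.05 (median -0.41). Of them 1 was called lower, as were 3.07% of all probesets. All 6 had a positive interaction, of which none passed. The interaction had an unadjusted p under 0.05 for 3 of the 6, as for 9.73% of all probesets in either direction. CLDN4 was called higher in the isthmus, by 1.09 in FP and 1.99 in LP heifers. The part of these markers in the tissue differences and interactions of the members was not tested.

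**Figure D4:**
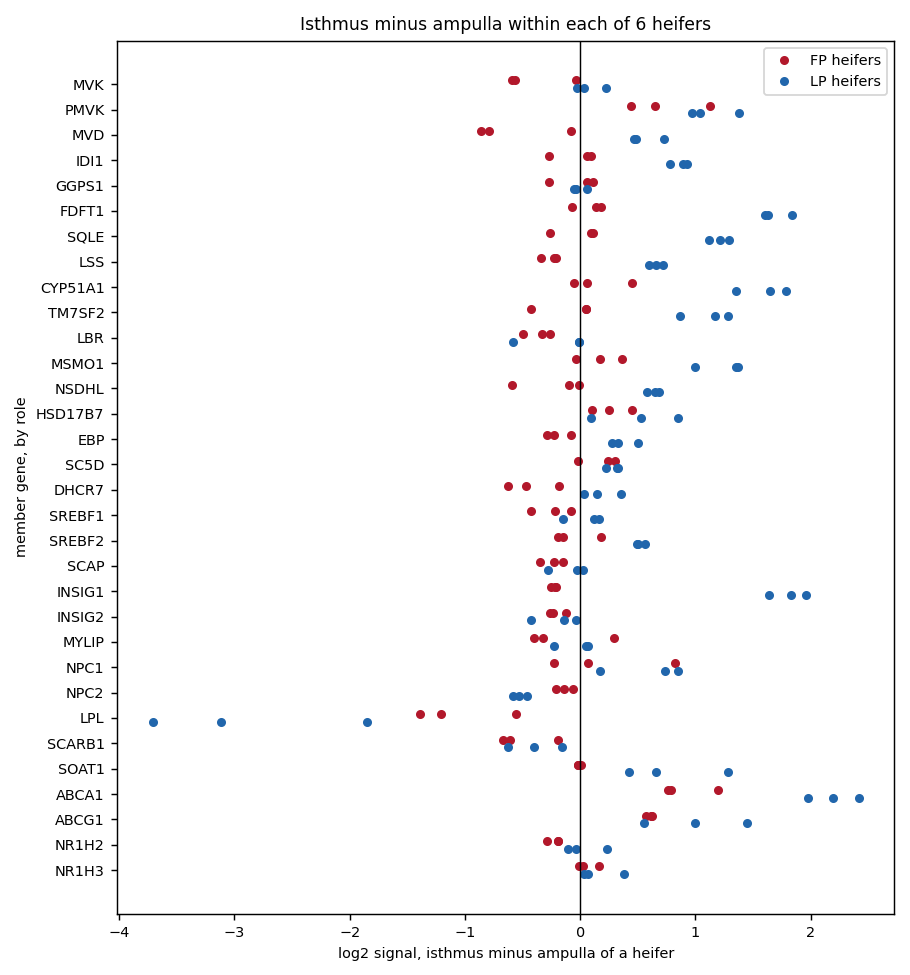
Isthmus minus ampulla log2 signal of each member within each heifer (red, 3 FP heifers, blue, 3 LP heifers, pairs as labelled). For FDFT1, SQLE, CYP51A1 and INSIG1 all FP heifers lie under the LP heifers, which are above 1, and ABCA1 is above 0 in all 6 heifers.

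Other genes of sterol and lipid synthesis were read from lists, of which only those with a single-symbol probeset were measured here: 1 of 8 for other sterol synthesis and 14 of 20 for other SREBP control and uptake. ERG28, a scaffold of the sterol demethylating enzymes in yeast, had increases of 0.88 (SE 0.15, adjusted p = 0.00272) in the isthmus and 1.37 (SE 0.15, adjusted p = 0.00025) in the ampulla. Of the 14 genes of SREBP control and uptake, 4 were higher in the isthmus, and 3 were higher and 1 was lower in the ampulla. Of all probesets, 4.4% were higher in the isthmus, and 4.44% were higher and 3.38% were lower in the ampulla. TMEM97, which binds sterols and NPC1, had 11.28 ± 0.08 in the FP ampulla, against 9.69 ± 0.11 in the LP ampulla, an increase of 1.59 (SE 0.09, adjusted p = 5.62e-06), and its increase in the isthmus was 1.12 (SE 0.09, adjusted p = 6.52e-05). TMEM41B, a lipid scramblase of the endoplasmic reticulum, had increases of 1.05 (SE 0.09, adjusted p = 0.000108) in the isthmus and 1.28 (SE 0.09, adjusted p = 2.62e-05) in the ampulla. The lipoprotein receptor LRP8 had increases of 0.74 in the isthmus (adjusted p = 0.00173) and 1.06 in the ampulla (adjusted p = 0.000239), and LRP1 fell by 0.85 in the ampulla (adjusted p = 0.035), a call lost on dropping FP heifer 1, 2 or 3 or LP heifer 3, with a highest adjusted p of 0.149.

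Fatty acid synthesis, the other arm of SREBP targets, showed 3 of 12 genes higher in the isthmus and 8 of 12 in the ampulla, with none lower. Of these 12, ACACB and THRSP lay at or under the lower quartile in every group. Of all probesets, 4.4% were higher in the isthmus and 4.44% in the ampulla. Fatty acid synthase (FASN) had 11.03, 11.02 and 10.98 in the FP ampulla, against 9.07, 9.05 and 8.98 in the LP ampulla, an increase of 1.98 (SE 0.13, adjusted p = 1.92e-05), and its increase was 1.05 (SE 0.13, adjusted p = 0.000673) in the isthmus. The desaturases FADS2 (1.25, adjusted p = 0.000595) and SCD (1.07, adjusted p = 9.2e-05) rose in the ampulla, as did FADS1 (0.93, adjusted p = 0.000223). FADS2 passed the interaction (-1.40, adjusted p = 0.0472), with -0.14 in the isthmus (adjusted p = 0.593), but it was lost whichever of the 6 heifers was dropped, with a highest adjusted p of 0.188. The median over the 12 genes, ACACB and THRSP included, was 0.215 in the isthmus and 0.80 in the ampulla, against 0.475 and 1.2 over the 17 enzymes of cholesterol synthesis.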

How the data were processed

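RNA of oviduct epithelial cells from 6 heifers was hybridized to 12 Bovine Gene 1.0 ST arrays, 3 for each phase and tissue. The authors deposited log2 signals made by RMA, that is background correction, quantile normalization and median polish of probes into 26773 probesets (the submitters' processing notes name GCOS 1.2 and Partek 6.4). Quantile normalization removes any difference between arrays in total signal, and no detection calls were used here, so precision is limited by the number of arrays. The platform's annotation gave 18457 probesets a single symbol, 688 several and 7628 none, and all 32 members matched RefSeq by gene number. No sequence of a member is shown.

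The 4 group means were fitted with limma 3.58.1 in R 4.3.3, with 8 residual degrees of freedom and Benjamini-Hochberg adjustment over all probesets in each of the 5 comparisons. The call was an adjusted p under 0.05 and at least 1.5-fold, without the minimum fold for the interaction. The fit was tested on simulated data, and figures were drawn with matplotlib 3.10.9. Every member was read in both phase comparisons, and in the others only those called or with an unadjusted p under 0.05 could be named. The members and lists were chosen with earlier results of these data known. Heifers are separate animals. The labels pair the tissues of a heifer. The study's methods used no heifer term, so none was in the main fit, and a heifer block, dropped heifers, fits on the arrays of the compared groups alone, no minimum fold, median centring, a low-value filter, a variance trend and the methods' own F-test were tried as alternatives.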

Additional observations from a re-analysis of the deposited data

Results flagged for a closer look

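The phase by tissue interaction passed for 4 members, meaning that the FP minus LP difference of the isthmus and that of the ampulla differed by the limma test. The interaction was -2.04 for INSIG1 (adjusted p = 0.0154), -1.61 for FDFT1 (adjusted p = 0.0154), -1.45 for CYP51A1 (adjusted p = 0.0472) and -1.28 for ABCA1 (adjusted p = 0.0483). Within heifers the isthmus minus ampulla difference of INSIG1 was -0.22, -0.21 and -0.25 in the FP and 1.83, 1.64 and 1.96 in the LP, with the tissues of FP heifers paired as labelled. For ABCA1 it was 1.2, 0.76 and 0.79 in the FP and 1.98, 2.42 and 2.19 in the LP. Groups of 3 arrays are too small for a test of single outlying arrays.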

How the results depend on the processing

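With 1 heifer left out, the number of members called, newly called members included, was 17 to 19 in the ampulla between phases (20 with all heifers), 7 to 11 in the isthmus (9), 0 to 6 for the interaction (4), 0 to 3 between tissues in the FP (2) and 12 to 15 between tissues in the LP (14). A fit on the arrays of the compared groups alone called 19 in the ampulla, 9 in the isthmus, 2 between tissues in the FP, with ABCG1 in place of PMVK, and 11 in the LP. Without the minimum fold, 15 members passed in the isthmus. The interaction passed for 7 members with heifer as a random replicate block and 2 with heifer as a fixed block. It passed for 7 with the low-value filter and 8 with a variance trend. The methods' F-test and LSD, whose contrast p was not adjusted, passed 17. Over all probesets, 757 passed as positive and 1074 as negative by that rule, against 4 and 37 in the main fit. The random block passed 7 and 52, and the fixed block 3 and 16. The low-value filter passed 6 and 51 of 20079, and the variance trend 8 and 66. The random block added IDI1, TM7SF2 and MSMO1, the fixed block took away CYP51A1 and ABCA1 and left 1 tissue call in the FP (ABCA1), and neither changed another call. Both blocks use the FP pairs as labelled, which the arrays did not bear out. The fixed block could not be estimated for FP minus LP, since each heifer has 1 phase. Under median centring, which moved the median of all probesets by at most 0.042, NR1H3 in the ampulla and TM7SF2 in the isthmus turned to 0.014, neither called. With 1 heifer left out, differences that were not called took both signs, in the ampulla from -0.096 to 0.098 for HSD17B7, -0.092 to 0.162 for MYLIP, -0.155 to 0.266 for ABCG1 and -0.138 to 0.085 for NR1H3, and in the isthmus from -0.145 to 0.006 for GGPS1, -0.10 to 0.076 for TM7SF2 and -0.16 to 0.087 for MYLIP. Of 1498 values of single members under the alternatives, 1374 kept their direction and side of the threshold, 55 newly passed, 56 no longer passed and 13 changed sign. Each member had 1 probeset, so no other choice of probeset was run.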

Other observations

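Genes of other branches that draw on or dispose of sterols were read beside the members. Of 10 genes that make dolichol and ubiquinone or attach prenyl groups to proteins, 3 were higher in the FP in the isthmus and 2 in the ampulla, with none lower. Of all probesets, 4.4% were higher in the isthmus and 4.44% in the ampulla. NUS1, a subunit of the enzyme that builds dolichol, rose by 0.73 in the isthmus (adjusted p = 0.00132) and by 0.93 in the ampulla (adjusted p = 0.000337). RABGGTB, a subunit of the transferase that prenylates Rab proteins, rose by 0.66 in the isthmus (adjusted p = 0.0017) and by 0.60 in the ampulla (adjusted p = 0.00305), where it went under the minimum fold on dropping FP heifer 1 or LP heifer 1 or 3 (lowest difference 0.53). PDSS1, which makes the tail of ubiquinone, rose by 0.75 in the isthmus (adjusted p = 0.0146), a call lost on dropping FP heifer 2 or LP heifer 1 or 2 (highest adjusted p = 0.0675).

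Of 14 measured genes of a list of 15 for efflux and sterol oxidation, 1 was lower in the isthmus, and 3 were higher and 1 was lower in the ampulla. Of these 14, ABCG5, ABCG8 and CH25H lay at or under the lower quartile in every group. Of all probesets, 4.04% were lower in the isthmus, and 4.44% were higher and 3.38% were lower in the ampulla. APOA1, the main protein of high density lipoprotein, had 7.29, 10.21 and 9.19 in the FP ampulla, against 6.85, 7.08 and 6.91 in the LP ampulla. FP heifer 1 lay near the LP heifers, and the difference of 1.95 (adjusted p = 0.039) was 1.29 without FP heifer 2 and 2.75 without FP heifer 1, and the call stood on dropping FP heifer 1 but was lost on dropping any other heifer (highest adjusted p = 0.134). The sterol hydroxylases CYP27A1 (0.62, adjusted p = 0.0131) and CYP39A1 (0.59, adjusted p = 0.0195) rose there too, calls lost on dropping FP heifer 1 or 2 or LP heifer 1 for CYP27A1 (highest adjusted p = 0.0612) and FP heifer 3 or LP heifer 2 or 3 for CYP39A1 (highest adjusted p = 0.0839). NCEH1, a hydrolase of cholesterol esters, fell by 1.04 in the isthmus (adjusted p = 0.00225) and by 1.06 in the ampulla (adjusted p = 0.00213). The lipid transporter ABCA2 was lower in the isthmus than in the ampulla in the FP (-1.12, adjusted p = 0.0156) and in the LP (-1.65, adjusted p = 0.000649), opposite in sign to ABCA1, and the call in the FP was lost on dropping FP heifer 1, 2 or 3 (highest adjusted p = 0.191). Dropping heifers for genes that are not members was chosen after seeing the data.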
